A study of Mus musculus with 12 samples.

Results

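The genes described are the oligodendrocyte progenitor surface genes Pdgfra, Gpr17, Cspg4, Cspg5, Bcan, Ncan and Vcan, 7 of the 21631 protein-coding genes of the gene table, and the measurement is open chromatin at their loci. A peak of accessible DNA was counted for one of these genes when the gene was the nearest protein-coding gene to the peak's midpoint, at most 100 kb away. The genes were chosen by name and not by a rule on these measurements, though earlier results of these data were known. They held 149 of the 218906 peaks in 12 deposited lists.

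Oligodendrocyte progenitors are dividing glial cells that later form myelinating oligodendrocytes. They are recognised by the growth factor receptor encoded by Pdgfra and by the membrane proteoglycan NG2 encoded by Cspg4, and they secrete or carry several chondroitin sulphate proteoglycans. Brevican, neurocan and versican, encoded by Bcan, Ncan and Vcan, are lecticans, which bind hyaluronan in the brain's extracellular matrix. These genes are not exclusive to the lineage: pericytes express Cspg4, fibroblasts express Pdgfra and Vcan, and astrocytes express several of the lecticans.

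ATAC-seq, in which a transposase inserts adapters into accessible DNA, had been run on cells sorted from untreated SHH medulloblastomas, hedgehog-driven cerebellar tumours, of Ptch1+/- mice at endpoint. All groups carried that genotype, and ages are not given in the sources used here. One sort separated SOX2- tumour cells (4 libraries) from SOX2+ cells (4 libraries) by eGFP, and the other separated SOX2+/MKI67- cells (2 libraries) from SOX2+/MKI67+ cells (2 libraries) by RFP. The design sets stem-like SOX2+ cells against the tumour bulk, and cycling against non-cycling cells among the SOX2+ cells. The labels do not say whether each replicate is its own animal, so p-values measure only how far these samples spread, and that spread may be technical. Lists held 7009 to 26206 peaks in SOX2-, 9377 to 25272 in SOX2+, 17615 and 19229 in SOX2+/MKI67-, and 18738 and 24694 in SOX2+/MKI67+. The lists carry no read depth, so list length served as the measure of how deep peak calling went. The sort marker Sox2 had 0, 1, 1 and 1 peaks in the SOX2- libraries and 5, 2, 6 and 4 in the SOX2+ libraries. The groups did not overlap, but Sox2 did not pass the test used below (limma, adjusted p = 0.0589). Sox2 passed in 3 of 24 alternative fits, among them the fit without genes of constant peak number (limma, adjusted p = 0.0198). Mki67 had 2 and 1 peaks in SOX2+/MKI67- and 2 and 5 in SOX2+/MKI67+ (limma, adjusted p = 1).

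Over the 7 loci together, the SOX2+ libraries held more of their peaks there than the SOX2- libraries. SOX2- replicates 1 to 4 listed 0, 14, 3 and 6 peaks at these loci, and SOX2+ replicates 1 to 4 listed 15, 4, 11 and 21. The SOX2+/MKI67- libraries listed 15 and 20, and the SOX2+/MKI67+ libraries 13 and 27. SOX2- replicate 1 and SOX2+ replicate 2, each the sparsest of its group, also had the shortest lists, so the counts were set against list length. Per 10000 listed peaks, the loci held 2.62 ± 2.19 (SD, n = 4) in SOX2-, 6.78 ± 2.21 (SD, n = 4) in SOX2+, 9.58 ± 2.51 (SD, n = 2) in SOX2+/MKI67- and 8.94 ± 2.83 (SD, n = 2) in SOX2+/MKI67+. The SOX2- and SOX2+ ranges overlapped, because SOX2- replicate 2 reached 5.34 and SOX2+ replicate 2 stood at 4.27. The lowest MKI67-sort library, at 6.94, was above every SOX2- library. No test was made of this summed value.

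**Figure D1:**
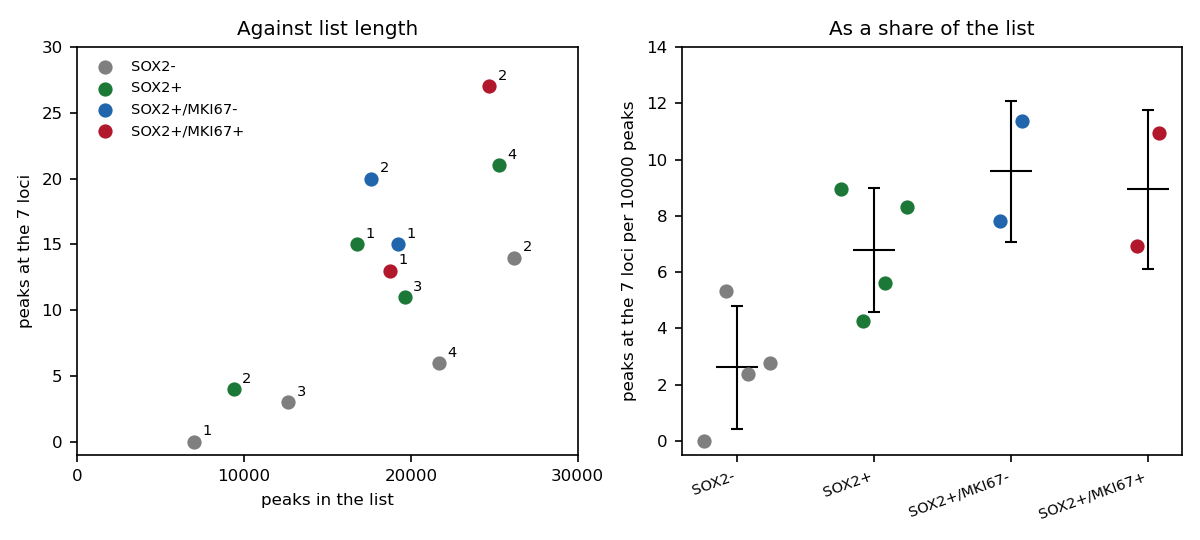
Left, listed peaks at the 7 loci (y axis) against peaks in the whole list (x axis), 1 point per library with its replicate number. Right, the same peaks per 10000 peaks of the list, with the group mean (bar) and SD (whiskers; n = 4, 4, 2 and 2); SOX2- libraries lie between 0 and 5.34 and SOX2+ libraries between 4.27 and 8.93.

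Lists of like length gave the same order. SOX2+ replicate 4 (25272 peaks) had 21 peaks at the loci and SOX2- replicate 2 (26206 peaks) had 14. SOX2+ replicate 3 (19636 peaks) had 11, against 6 in SOX2- replicate 4 with its longer list of 21682. When the 7009 best peaks of every list were kept, few remained at these loci: 0, 1, 0 and 1 in SOX2-, 1, 2, 3 and 2 in SOX2+, 1 and 4 in SOX2+/MKI67-, and 1 and 1 in SOX2+/MKI67+. Most peaks at the loci therefore stood below the top of their lists. Ranked by the authors' q-value within each list, the median peak at these loci was at percentile 33.7, and the median over all 205818 peaks assigned to any gene was at percentile 51.1.

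Peaks per gene were tested with limma on log2(peaks + 1) over 14185 genes, with list length as a covariate and Benjamini-Hochberg adjustment over all of them. In SOX2+ against SOX2-, 0 of the 7 genes passed an adjusted p of 0.05, where 0.86% of all genes tested did. By unadjusted p, 1 of the 7 was under 0.05, as were 13.3% of all genes (1885). By the nearest-gene rule 0 of the 7 had every SOX2+ library above every SOX2- library, against 1.08% of all genes. All 7 fitted differences were above 0, with a median of 0.41 on the log2 scale against 0 over all genes tested, of which 43.2% were above 0. The 7 share libraries and list lengths, so this count of directions carries no test. Leaving out any 1 library changed no call of the 7, and the direction of Pdgfra and of Ncan turned in some of these fits.

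**Figure D2:**
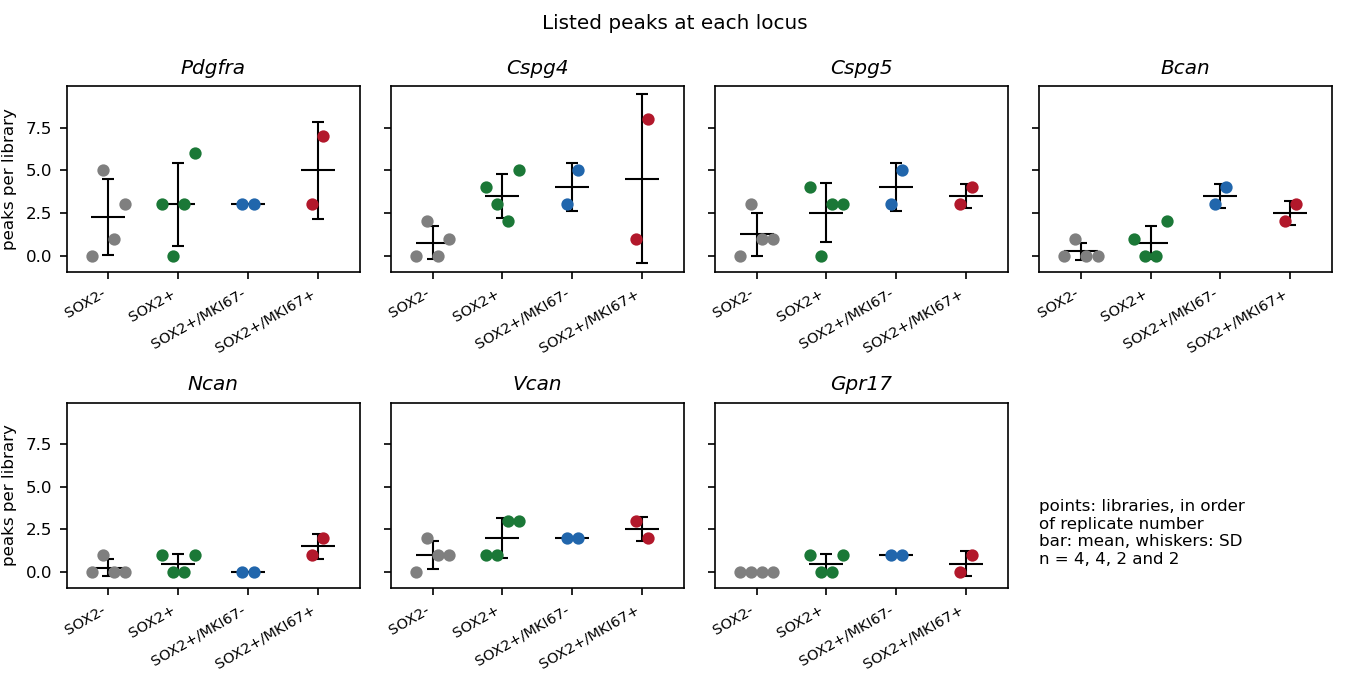
Listed peaks per library (y axis) at each of the 7 loci, by group, 1 point per library in order of replicate number, with mean (bar) and SD (whiskers; n = 4, 4, 2 and 2). Cspg4 shows the widest gap between SOX2- (0 to 2) and SOX2+ (2 to 5), and Bcan is highest in the MKI67 sort (2 to 4).

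Pdgfra encodes the receptor for PDGF-A, the main mitogen of oligodendrocyte progenitors, and lies at chr5:75151322-75198206 (mm10). SOX2- replicates 1 to 4 listed 0, 5, 1 and 3 peaks there, and the SOX2+ replicates, in the same order, 3, 0, 3 and 6. The MKI67 sort gave 3 and 3 in SOX2+/MKI67- and 3 and 7 in SOX2+/MKI67+. The groups overlapped widely, and the fitted difference of SOX2+ from SOX2- was 0.06 ± 0.19 (SE; limma, adjusted p = 1). This value fell below 0, to -0.0315, -0.0356 and -0.0016, without SOX2- replicate 4, SOX2+ replicate 1 or SOX2+ replicate 4.

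Some Pdgfra regions were listed in 1 of the groups and hardly or not in the other. Overlapping peaks of the 12 lists were merged into 44242 regions, 17 of them at Pdgfra, and 10 of those 17 came from a single library, where 30.4% of all regions did. A region 11.3 kb downstream of the start site, inside the gene (chr5:75163218-75163837), was listed in SOX2+ replicates 1, 3 and 4 and in all 4 MKI67-sort libraries. No SOX2- library listed it. Its peaks ranked from percentile 68.3 to 76.1 in those SOX2+ lists, and from 30.7 to 73.5 in the MKI67 sort. A second region, 25.9 kb beyond the right end of the gene (chr5:75223891-75224303), was listed in SOX2+ replicates 1, 3 and 4, both SOX2+/MKI67- libraries and SOX2+/MKI67+ replicate 2, again with no SOX2- library.

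Another Pdgfra region ran the other way. The region 27.5 kb downstream of the start site (chr5:75179345-75180169) was listed in SOX2- replicates 2, 3 and 4 at percentiles 84.4, 34.2 and 74.3. In SOX2+ cells it appeared in replicate 3 alone, at percentile 15.96, and in the MKI67 sort in both SOX2+/MKI67+ libraries and neither SOX2+/MKI67- library. The start site itself was covered in SOX2+/MKI67+ replicate 2 alone.

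Gpr17 encodes a receptor of committed oligodendrocyte precursors and lies at chr18:31942999-31949890, inside the span of Lims2, an adaptor protein gene. Its 5 peaks lie in both spans and went to the shorter gene. It had 0 peaks in each SOX2- library, 1 in SOX2+ replicates 1 and 4, 1 in each SOX2+/MKI67- library, and 1 in SOX2+/MKI67+ replicate 2. By this count the difference of SOX2+ from SOX2- was 0.46 ± 0.30 (SE; limma, adjusted p = 0.612).

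At the right end of Gpr17, 2 regions that the nearest-gene rule gave to Lims2 were listed in libraries of SOX2+ sorted cells alone. A region over that end (chr18:31949538-31950385) was listed in all 4 SOX2+ and all 4 MKI67-sort libraries and in no SOX2- library. Its midpoint is 0.071 kb outside Gpr17 and inside Lims2. It includes the 1 peak counted for Gpr17 in SOX2+ replicate 1, at percentile 25.4, whose own midpoint is inside Gpr17. A second region 3.86 kb to the right (chr18:31953435-31954057), inside Lims2, was listed in the same 8 libraries and in no SOX2- library. The best peak per library ranked at percentiles 47.8 to 89.9 of its list in the first region and 75.2 to 92.5 in the second. Both appeared even in SOX2+ replicate 2, the shortest SOX2+ list, and missed both long SOX2- lists. Presence in all 8 of these libraries and 0 of 4 SOX2- was found for 1.4% of all merged regions.

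Gpr17 was counted once more with each peak given to every gene whose span, widened by 5 kb at each end, held its midpoint, a rule chosen after these regions were seen. The SOX2- libraries then had 0, 0, 0 and 0 peaks and SOX2+ replicates 1 to 4 had 3, 2, 2 and 3, with no overlap, as was so for 0.925% of all genes under this rule. SOX2+/MKI67- libraries had 3 and 3, and SOX2+/MKI67+ libraries 2 and 4. The rule was picked from these same regions, so the tests of Gpr17 under it, listed with the alternatives at the end, support nothing. Lims2 shares these peaks, and under the nearest-gene rule had 0, 1, 0 and 0 peaks in SOX2- and 2 in each SOX2+ library (1.29 on the log2 scale; limma, adjusted p = 0.0546). Which of the 2 genes the regions serve was not tested.

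Cspg4 encodes NG2, a transmembrane proteoglycan that marks oligodendrocyte progenitors and pericytes, and lies at chr9:56865104-56899870. The SOX2- libraries had 0, 2, 0 and 1 peaks in replicate order and the SOX2+ libraries 4, 3, 2 and 5. Of the SOX2+ libraries, 3 of 4 were above every SOX2- library, and replicate 3 tied with SOX2- replicate 2 at 2. The fitted difference was 1.36 ± 0.46 (SE; limma, unadjusted p = 0.0191, adjusted p = 0.239), the largest of the 7. It remained between 1.11 and 1.59 when any 1 library was left out, with adjusted p from 0.140 to 0.475. The gene held a top-7009 peak in 3 SOX2+ libraries and in no SOX2- library.

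The MKI67 sort spread more widely at Cspg4. SOX2+/MKI67- libraries had 3 and 5 peaks, and SOX2+/MKI67+ libraries had 1 and 8. The 8 of SOX2+/MKI67+ replicate 2 was the highest count of any of the 7 genes in any library.

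Of the 7 Cspg4 regions, 3 were listed in 3 of 4 SOX2+ libraries and in no SOX2- library. They lie inside the gene, 11.96 kb (chr9:56876661-56877476), 15.8 kb (chr9:56880677-56881230) and 16.6 kb (chr9:56881490-56881900) downstream of the start site. The first was also listed in both SOX2+/MKI67- libraries and SOX2+/MKI67+ replicate 2. It is 816 bp wide with summits up to 531 bp apart, so these libraries need not share a site. The other two were each listed in SOX2+/MKI67- replicate 2 and SOX2+/MKI67+ replicate 2. A region 3.3 kb downstream of the start site (chr9:56868087-56868740) was more general: 9 of 12 libraries listed it, including SOX2- replicates 2 and 4.

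Cspg5 encodes neuroglycan C, a transmembrane proteoglycan of neurons and glia, and lies at chr9:110243783-110262576. The SOX2- libraries listed 0, 3, 1 and 1 peaks in replicate order, and the SOX2+ libraries listed 4, 0, 3 and 3. The groups overlapped at both ends, and the difference was 0.41 ± 0.35 (SE; limma, adjusted p = 0.694). SOX2+/MKI67- libraries had 3 and 5 peaks and SOX2+/MKI67+ libraries 3 and 4.

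The Cspg5 locus combined a region listed in most libraries with a restricted one. The region at chr9:110245013-110246625 was listed in 10 of 12 libraries, missing only from the 2 shortest lists. It is 1613 bp wide with summits up to 1347 bp apart, so these libraries need not share a site. Its best peak ranked at percentiles 8.69 to 11.8 in the SOX2- lists and 33.7 to 64.6 in lists of SOX2+ sorted cells. The region at chr9:110249727-110250368 was listed in SOX2+ replicates 1, 3 and 4, in both SOX2+/MKI67- libraries and in SOX2+/MKI67+ replicate 2. No SOX2- library listed it. It is 642 bp wide with summits up to 403 bp apart, so here too the libraries need not share a site.

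Bcan encodes brevican, the smallest lectican, which is brain-specific, and lies at chr3:87987531-88002175. In replicate order, the SOX2- libraries had 0, 1, 0 and 0 peaks and the SOX2+ libraries 1, 0, 0 and 2, a difference of 0.31 ± 0.34 (SE; limma, adjusted p = 0.799). The MKI67 sort stood higher, with 3 and 4 peaks in SOX2+/MKI67- and 2 and 3 in SOX2+/MKI67+. All 4 of those libraries were above every SOX2- library. By the nearest-gene rule Bcan alone of the 7 had both SOX2+/MKI67+ libraries above every SOX2- library, where 5.47% of all genes did. With every gene within 5 kb counted, a rule chosen after the Gpr17 regions were seen, Cspg5, Ncan and Gpr17 did so too. The share of all genes under that rule was not computed for this comparison, so nothing is concluded from it.

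Ncan encodes neurocan and lies at chr8:70093085-70120863. Its counts were 0, 1, 0 and 0 over the SOX2- replicates and 1, 0, 0 and 1 over the SOX2+ replicates, a difference of 0.18 ± 0.29 (SE; limma, adjusted p = 0.917). SOX2+/MKI67- libraries had 0 and 0 peaks and SOX2+/MKI67+ libraries had 1 and 2. Most of these were 1 region 1.9 kb downstream of the start site (chr8:70118786-70119126), listed in SOX2- replicate 2, SOX2+ replicates 1 and 4 and both SOX2+/MKI67+ libraries. The fitted difference of Ncan was -0.0232 without SOX2- replicate 4.

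Vcan encodes versican, a large lectican of progenitor-rich and mesenchymal matrix, and lies at chr13:89655309-89743027. Peaks numbered 0, 2, 1 and 1 over the SOX2- replicates and 1, 1, 3 and 3 over the SOX2+ replicates. The groups overlapped, since 2 of 4 SOX2+ libraries were above every SOX2- library and the other two were not. The difference was 0.50 ± 0.23 (SE; limma, adjusted p = 0.437). The MKI67 sort gave 2 and 2 in SOX2+/MKI67- and 3 and 2 in SOX2+/MKI67+.

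**Figure D3:**
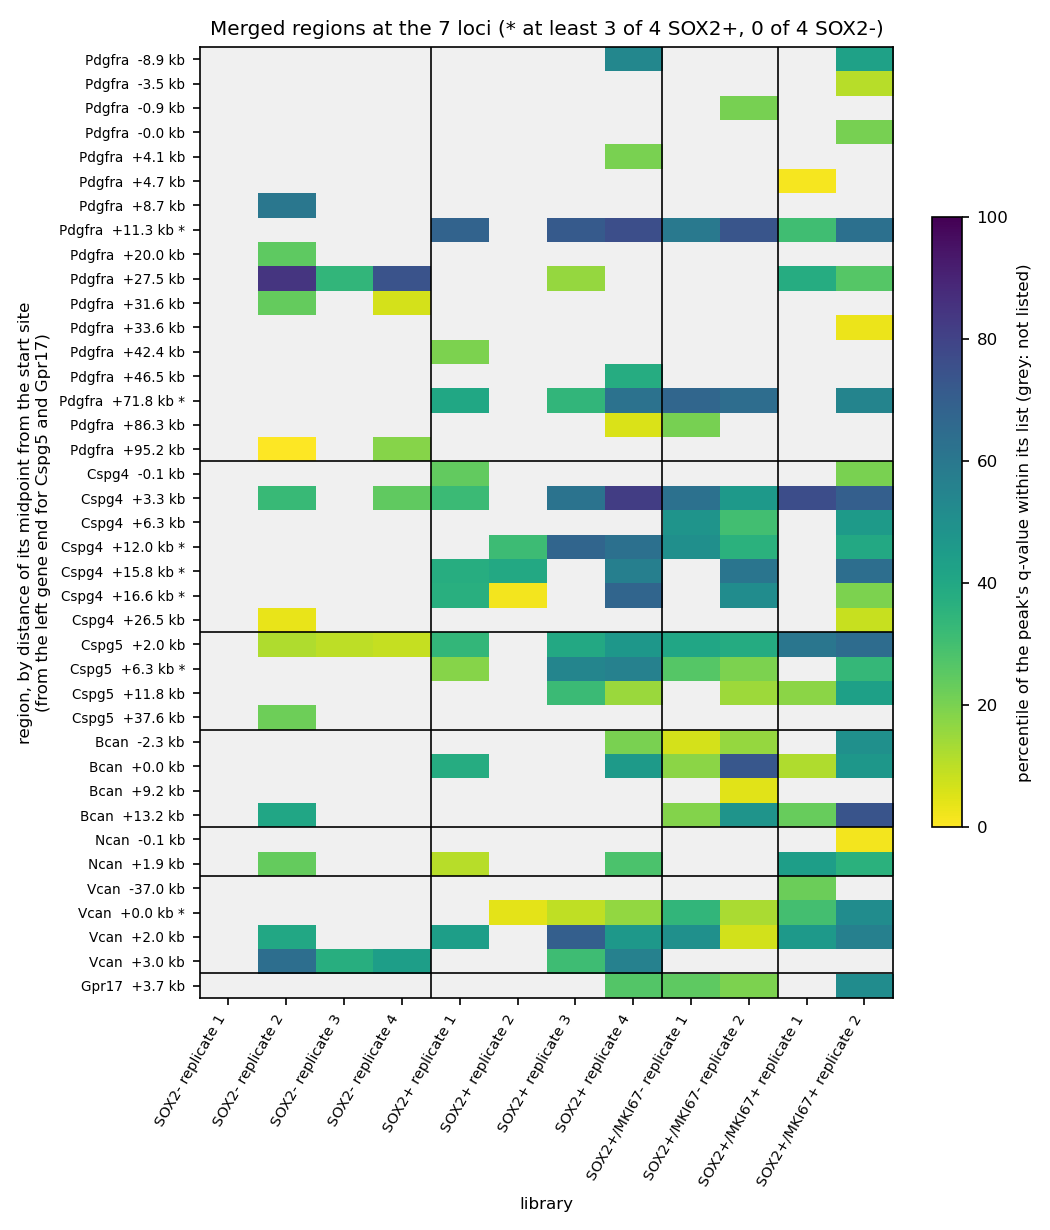
Each row is 1 of the 39 merged regions at the 7 loci, labelled with the distance of its midpoint from the start site (from the left gene end for Cspg5 and Gpr17), and each column is 1 library. Colour gives the percentile of the peak's q-value within its list, grey marks a region that was not listed, and an asterisk marks the 7 regions listed in 3 or 4 of the SOX2+ libraries and none of SOX2-.

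Start sites of Vcan and Bcan were covered in SOX2+ sorted libraries and in no SOX2- library. The Vcan region (chr13:89742269-89742718) was listed in SOX2+ replicates 2, 3 and 4 and in all 4 MKI67-sort libraries, with summits within 172 bp of each other. The Bcan region (chr3:88000103-88000530) was listed in SOX2+ replicates 1 and 4 and all 4 MKI67-sort libraries, with summits within 125 bp. Peaks over the Vcan start site ranked low in the SOX2+ lists, at percentiles 4.03, 9.5 and 16.4, so a list with a slightly higher threshold would lose them. With the stricter threshold of a −log10 q-value of at least 5, the Vcan difference between SOX2+ and SOX2- was -0.0544.

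The 250 bases before these start sites are shown because the regions above cover them, with Pdgfra beside them as a start site listed in 1 library. The sequences are from RefSeq (GRCm38.p6, which has the mm10 coordinates), 5′ to 3′ on the gene's strand, ending at the base before the start site. Capitals mark bases inside a merged region. They stand at chr13:89742513-89742762 (minus strand), chr3:88000357-88000606 (minus strand) and chr5:75152001-75152250 (plus strand).
Vcan: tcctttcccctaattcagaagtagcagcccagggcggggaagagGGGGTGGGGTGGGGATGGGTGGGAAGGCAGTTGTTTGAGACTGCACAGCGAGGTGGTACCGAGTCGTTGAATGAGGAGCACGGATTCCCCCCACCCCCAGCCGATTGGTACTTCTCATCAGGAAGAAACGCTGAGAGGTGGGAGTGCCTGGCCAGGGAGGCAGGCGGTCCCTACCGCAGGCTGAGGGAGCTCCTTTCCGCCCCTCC
Bcan: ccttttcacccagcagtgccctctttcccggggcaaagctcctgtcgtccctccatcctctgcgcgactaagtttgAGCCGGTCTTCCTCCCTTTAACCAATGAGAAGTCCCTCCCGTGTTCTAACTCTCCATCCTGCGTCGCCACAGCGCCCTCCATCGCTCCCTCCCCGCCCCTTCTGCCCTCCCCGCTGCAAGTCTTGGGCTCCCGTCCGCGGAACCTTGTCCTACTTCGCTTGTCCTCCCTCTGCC
Pdgfra: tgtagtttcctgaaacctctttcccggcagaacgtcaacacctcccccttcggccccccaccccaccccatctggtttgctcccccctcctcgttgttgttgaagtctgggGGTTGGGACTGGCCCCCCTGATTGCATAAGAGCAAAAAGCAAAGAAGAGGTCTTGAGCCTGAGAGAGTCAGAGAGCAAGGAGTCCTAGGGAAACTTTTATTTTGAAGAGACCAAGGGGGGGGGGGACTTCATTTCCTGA

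CpG content differed between these sequences. The Bcan sequence has 16 CpG dinucleotides and the Vcan sequence 10, and Pdgfra has 4. Cspg4 has 12 and was covered in SOX2+ replicate 1 and SOX2+/MKI67+ replicate 2, and Ncan has 6 and was covered in SOX2+/MKI67+ replicate 2. RefSeq promoters were matched for 5 of the 7 genes, all but Cspg5 and Gpr17. Over 21045 protein-coding promoters the median was 10 CpG, and 87.1% of those with 10 or more were overlapped by a peak in at least 1 library, against 18.9% of those with fewer. Coverage in 3 or 4 SOX2+ libraries and none of SOX2-, as at Vcan, was found at 0.737% of these promoters.

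Short motifs were searched in the same 250 bases on both strands. The SOX core CATTGT was in 0 of the 5 sequences and in 8.84% of all promoters. The E-box CAGCTG, bound by factors such as OLIG2, was in 1 of the 5 (Ncan) and in 12.2% of all promoters. The octamer ATTTGCAT and the GLI site GACCACCCA were in 0 of the 5, and in 1.59% and 0.162% of all promoters. A match or its lack describes only these letters in this window.

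Across the 39 regions given to the 7 loci by the nearest-gene rule, 7 (17.9%) were listed in 3 or 4 of the SOX2+ libraries and none of SOX2-, where 4.1% of all merged regions were. Among regions listed in at least 3 of 12 libraries, which alone could meet the rule, the counts were 7 of 19 at these loci and 7.35% of all. The reverse class, with the groups exchanged, had 0 of 39 regions and 1.54% of all, or 2.76% of those listed in at least 3 libraries. These shares are descriptions of regions at 4 of the genes, 3 of them within Cspg4, and no test was made of them. The count of 7 rested on single libraries, because a list lost from SOX2+ makes the rule 3 of 3: it was 2 without SOX2+ replicate 1, 3 without replicate 2, 2 without replicate 3 and 0 without replicate 4. The reverse class rose from 0 to 1 without SOX2+ replicate 3. At the stricter threshold 25 regions remained at the loci, with 5 in the first class and 1 in the reverse class. Requiring 4 of 4 SOX2+ libraries left 0 regions at the loci, and 711 of all 44242.

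The loci lacked regions common to every library. Of the 39, 0 were listed in all 8 libraries of the SOX2 sort, where 12.3% of all regions were. No SOX2- library listed 26 of the 39 (66.7%), against 31.4% of all regions. The 4 SOX2+ libraries of the same sort listed none of another count of 16 (41%), against 34.4% of all. Regions from a single library made up 14 of the 39 (35.9%), against 30.4% of all. Most regions were inside the genes: 27 of 39 (69.2%) had a midpoint in the span, against 58.3% of all. SOX2- replicate 1, the shortest list, listed none of the 39.

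Between cycling and non-cycling SOX2+ cells none of the 7 genes passed the test. In SOX2+/MKI67+ against SOX2+/MKI67-, 0 of the 7 genes passed the adjusted p of 0.05, where 0.211% of all genes did. By unadjusted p, 1 of the 7 was under 0.05, and 4.64% of all genes (658) were. The largest difference was that of Ncan, 1.19 ± 0.41 (SE; limma, unadjusted p = 0.0204, adjusted p = 0.781), with 1 and 2 peaks against 0 and 0. Groups of 2 did not overlap, with the first higher, at 7.97% of all genes. Bcan stood at -0.49 ± 0.49 (SE; limma, adjusted p = 1) and Gpr17 at -0.55 ± 0.42 (SE; limma, adjusted p = 1). The median of the 7 was -0.37, against -0.02 over all genes. Of the 39 regions, 2 were listed in both SOX2+/MKI67+ and neither SOX2+/MKI67- library, at Ncan and at Pdgfra, and 0 the other way. Over all regions these shares were 4.03% and 0.972%.

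Each MKI67 group was also set against SOX2- cells. These comparisons cross 2 sorts, so the sort and the group cannot be told apart, and they share the SOX2- libraries with each other and with the comparison above. In SOX2+/MKI67- against SOX2-, 0 of the 7 genes passed (0.98% of all genes). Under an unadjusted p of 0.05 were 3 of the 7 and 14.4% of all genes (2043). In SOX2+/MKI67+ against SOX2-, 0 of the 7 passed (0.536% of all genes). Under an unadjusted p of 0.05 were 1 of the 7 and 9.49% of all genes (1346).

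By the nearest-gene rule Bcan gave the largest value in both. It was 1.75 ± 0.42 (SE; limma, unadjusted p = 0.00372, adjusted p = 0.126) in SOX2+/MKI67-, and 1.26 ± 0.44 (SE; limma, adjusted p = 0.344) in SOX2+/MKI67+. Cspg4 stood at 1.43 ± 0.57 (SE; limma, adjusted p = 0.293) in SOX2+/MKI67- and 1.06 ± 0.59 (SE; limma, adjusted p = 0.733) in SOX2+/MKI67+. Bcan, Cspg4 and Gpr17 were higher in both SOX2+/MKI67- libraries than in every SOX2- library, as were 5.88% of all genes. Ncan was the 1 gene of the 7 below 0 in SOX2+/MKI67-, at -0.38 ± 0.36 (SE; limma, adjusted p = 0.731).

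**Figure D4:**
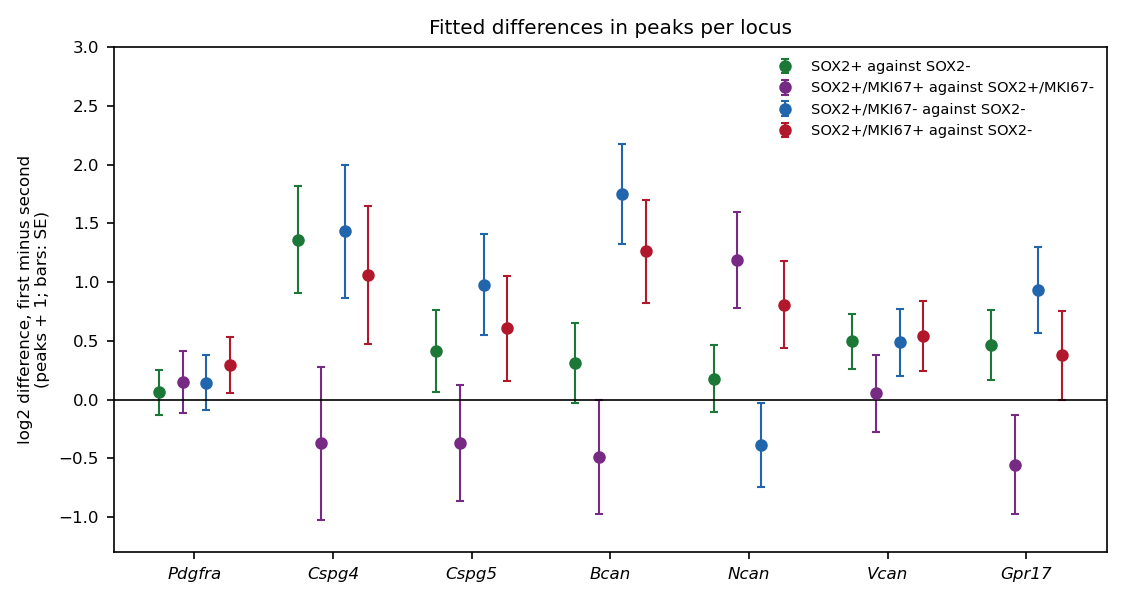
Fitted log2 differences in peaks + 1 (y axis; points, with SE as bars) for the 7 genes in each of 4 comparisons, after adjustment for list length. The highest points are Bcan in SOX2+/MKI67- against SOX2- (1.75) and Cspg4 in SOX2+/MKI67- and in SOX2+ against SOX2- (1.43 and 1.36). Peaks went to the nearest gene, and no point passed the adjusted p.

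The Bcan values of the MKI67 sort came from regions at both ends of the gene. Besides the start site, the region just left of the gene (chr3:87986900-87987370, on the side of Nes) was listed in all 4 MKI67-sort libraries, in SOX2- replicate 2 and in no SOX2+ library. Its percentiles were 18.7 and 48.3 in SOX2+/MKI67- and 23.1 and 74.2 in SOX2+/MKI67+. Another region, at Vcan 3.0 kb downstream of the start site (chr13:89739352-89739655), was listed in SOX2- replicates 2, 3 and 4 and SOX2+ replicates 3 and 4 and in no MKI67-sort library.

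The loci differ in the length of genome nearest to each gene, so peaks were also set against it. Mean peaks per 100 kb in the SOX2+ libraries were 7.66 at Cspg4, 7.25 at Gpr17, 6.01 at Cspg5, 2.74 at Bcan, 1.63 at Pdgfra, 1.48 at Ncan and 1.23 at Vcan. The same values in SOX2- libraries were 1.64, 0, 3.01, 0.912, 1.23, 0.738 and 0.616. Neighbouring values in either order do not differ beyond the spread of the libraries shown above. In SOX2+/MKI67- cells, Bcan was among the densest, at 12.8, and the 1 peak per library over the 6.9 kb of Gpr17 gave 14.5.

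Among other genes of the oligodendrocyte progenitor lineage, several passed the test. Of 15 transcription factor and lineage genes tested in SOX2+ against SOX2-, 4 passed and were higher, 0 were lower, and all 15 values were above 0 with a median of 0.83. Nkx2-2, a homeodomain factor of the lineage, had 0 peaks in each SOX2- library and 2, 2, 1 and 2 in SOX2+, a difference of 1.44 ± 0.15 (SE; limma, adjusted p = 0.00522). Olig2, the lineage's basic helix-loop-helix factor, had 0, 2, 1 and 1 peaks in SOX2- and 4, 3, 4 and 4 in SOX2+ (1.26 ± 0.19, SE; limma, adjusted p = 0.0328). Gpr37l1, which encodes a glial receptor, stood at 1.28 ± 0.18 (SE; limma, adjusted p = 0.0208).

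These 3 calls differed in how they held. Nkx2-2 passed in all 12 fits that left out 1 library, with adjusted p up to 0.0265. Gpr37l1 passed in 7 of them and Olig2 in 4, with adjusted p up to 0.0891 and 0.120. Gpr37l1 was lost without SOX2- replicate 2 or 4, or SOX2+ replicate 1, 3 or 4. Olig2 was lost without SOX2- replicate 3 or 4, any SOX2+ replicate, or either SOX2+/MKI67- library. The directions of Gpr37l1 and Olig2 did not turn, with values of at least 1.17 and 1.10. Other alternatives also ended these calls: 2 for Nkx2-2 (limma, adjusted p = 0.173 with equal peak numbers and 0.167 with the replicate block), 3 for Gpr37l1 (limma, adjusted p from 0.15 to 0.87) and 5 for Olig2 (limma, adjusted p from 0.0601 to 0.218). Fitted with MKI67-sort cells, 3 of the 15 passed in SOX2+/MKI67- against SOX2- and 1, Nkx2-2, in SOX2+/MKI67+ against SOX2-.

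None of the partners of the 7 genes passed with all genes in the fit. Of 13 tested link protein, tenascin, protease and sulphotransferase genes of the lectican matrix, 0 passed in SOX2+ against SOX2-, with a median of 0.24 and 9 of 13 above 0. The smallest p-values were those of Ptprz1, the receptor phosphatase and proteoglycan (1.304 ± 0.24, SE; limma, adjusted p = 0.0589), and Chst11, a chondroitin sulphotransferase (1.63 ± 0.33, SE; limma, adjusted p = 0.0778). Both passed when genes with the same number of peaks in all 12 libraries were left out of the fit (limma, adjusted p = 0.0231 and 0.0279), where 1.85% of all genes did and still 0 of the 7. Of 8 tested PDGF ligands and related receptors, 0 passed, with a median of -0.41 and 1 of 8 above 0. Kit, the receptor gene to the right of Pdgfra, stood at -0.42 ± 0.16 (SE; limma, adjusted p = 0.303).

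No marker of pericytes, fibroblasts, microglia or myelinating oligodendrocytes that could be tested passed. Pericyte and endothelial genes had 5 of 12 tested and 0 passed, with summed peaks of 0 to 9 in SOX2- and 1 to 9 in SOX2+, and Rgs5 and Anpep were at 0 in all 12 lists. Fibroblast and meningeal genes had 0 of 8 passed, with summed peaks of 1 to 10 in SOX2- and 0 to 9 in SOX2+, and Lum and Twist1 at 0. Microglia and macrophage genes had 0 of 5 passed, with sums of 0 to 5 and 1 to 9, and Csf1r, Cx3cr1, Aif1, Itgam and Cd68 at 0. Myelinating oligodendrocyte genes had 0 of 8 passed, with sums of 4 to 11 and 4 to 16, and Mag, Opalin and Aspa at 0.

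Among astrocyte and granule neuron markers, 3 genes passed. Of 9 tested astrocyte and Bergmann glia genes, 1 passed and all 9 values were above 0, with summed peaks of 1 to 12 in SOX2- and 5 to 21 in SOX2+. The gene that passed was Fabp7, which encodes a fatty acid binding protein of radial and Bergmann glia. Fabp7 had 0 peaks in each SOX2- library and 1 in every other library. It did not pass at the stricter threshold (limma, adjusted p = 0.184). Without genes of constant peak number, 2 of the 9 passed, Fabp7 and Aldh1l1, where 1.85% of all genes did. Of 12 granule neuron lineage genes tested, 2 passed and were lower in SOX2+ (Nhlh1, -1.46 ± 0.22, SE; limma, adjusted p = 0.0285; Reln, -1.83 ± 0.30, SE; limma, adjusted p = 0.043), with 0 of 12 above 0. Nhlh1 passed in 4 and Reln in 1 of the 12 fits without 1 library. Nhlh1 also failed in 3 other alternatives (limma, adjusted p from 0.0767 to 0.184) and Reln in 5 (limma, adjusted p from 0.0573 to 0.292). The part of these cells' proportions in the values of the 7 genes was not tested. In sorted bulk samples, more cells of a type and more open chromatin per cell cannot be told apart.

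The genes whose profile over the 12 libraries was most like the summed profile of the 7 were Nhsl2 (Pearson r = 0.94), Tmem108 (0.94), Slc35f1 (0.94), Clhc1 (0.92) and Zfp827 (0.92). The measure was the correlation of log2(peaks + 1) after removal of the trend with list length, among the 12855 genes listed in 4 or more libraries, and the points share their lists. For Cspg4 the most alike was Prdm16 (r = 0.92), for Pdgfra Synrg (0.88), for Cspg5 Prpf4b (0.91), for Bcan Klk4 (0.92) and for Vcan Gng12 (0.88). Among the 7 themselves, the same measure ran from -0.13 between Pdgfra and Vcan to 0.74 between Bcan and Gpr17. Of the 14 genes next to the 7 on the left and right, 12 were tested in SOX2+ against SOX2- and 1 passed. It was Smarcc1, the left neighbour of Cspg5, which encodes a chromatin remodelling subunit. Smarcc1 had more peaks in SOX2+ (2.25 on average) than in SOX2- (1.00), a difference of 0.68 ± 0.09 (SE; limma, adjusted p = 0.0192). It passed in 9 of the 12 fits without 1 library, and not without SOX2- replicate 2, 3 or 4 (limma, adjusted p up to 0.0798). Smarcc1 also failed with the replicate block and without the 2 shortest lists (limma, adjusted p from 0.0658 to 0.176).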

How the data were processed

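Peak lists from 12 ATAC-seq libraries were used as deposited: 4 SOX2-, 4 SOX2+, 2 SOX2+/MKI67- and 2 SOX2+/MKI67+. Per the submitters' processing notes, the authors aligned reads with Bowtie2 to mm10 and called peaks with MACS2. Lists are per library, and versions and settings, duplicate removal and any transposase offset correction are not given in the sources used here. Each deposited list gives a score, a fold ratio over local background, a −log10 p-value and a −log10 q-value per peak, as the authors' peak caller wrote them. The deposited score served to rank peaks within a list. The deposited −log10 q-value served for within-list percentiles and for a threshold of 5, and the deposited ratio and p-value were not analysed further. The lists hold no read counts, so an unlisted peak may lie just under its list's threshold.

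Peaks were given to the nearest of 21631 protein-coding genes of GRCm38.p6 (same coordinates as mm10) by midpoint, within 100 kb, and ties went to the shorter gene. The gene table gives spans without exons, so exonic and intronic positions were not told apart. Start sites and strands came from RefSeq promoters of the same build, matched for 5 of the 7 genes. The test was limma 3.58.1 in R 4.3.3, with a mean-variance trend, on log2(peaks + 1) per gene over all 12 libraries, with group and log10 list length as terms. It covered genes listed in 2 or more libraries, with Benjamini-Hochberg adjustment and a threshold of 0.05. Differences depend on the pseudocount of 1, most where a group is at 0. Regions are merged peaks that share 1 bp or more. Genes named outside the 7 were every list member that passed, otherwise up to 2 of the smallest p, the sort markers, and those of most similar profile. The values of 1 list gene that passed are not reported here. Lims2 and Smarcc1 were named after their values were seen, as neighbours. The members and lists were chosen with earlier results of these data known. Alternatives changed the peak set, threshold, window, pseudocount, filter, covariate, block and libraries. Those added after seeing the data were a filter within the SOX2 sort, leaving out the 2 shortest lists, leaving out genes with a constant number of peaks, counting a peak for every gene within 5 kb, and a replicate block over both sorts.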

Additional observations from a re-analysis of the deposited data

Results flagged for a closer look

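Bcan in SOX2- replicate 2 stood apart from its group, with 1 peak where the other three libraries had 0. Ncan in SOX2- replicate 2 did likewise, with 1 peak and 0 in the others. A single peak is always enough to set a library apart when the rest are at 0. The rule's chance rate of about 1 in 20 groups therefore does not hold for such counts. SOX2- replicate 2 had the longest list of all, 26206 peaks.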

How the results depend on the processing

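Under the alternatives run, 0 of the 7 genes passed in any comparison except Gpr17, which passed against SOX2- in 3 comparisons when every gene within 5 kb was counted, a rule picked from its own regions, so these passes support nothing. Over 635 fitted differences of the 7 genes, 606 kept direction and side of the threshold. Peak lists carry no read depth, so values of 0 to 2 peaks limit every one of these genes, and the cause of each change below was not tested.

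In SOX2+ against SOX2-, 122 genes were called, and 227 with equal peak numbers, 246 without the 2 shortest lists, and 80 to 194 without 1 library. These were largely other genes in some settings: of the 227, 21 were among the 122, and of the 246, 86 were. The stricter threshold gave 136, of which 52 were among the 122, and the window of 20 kb gave 106, of which 91 were. The replicate block gave 56, of which 50 were among the 122. Same-numbered libraries of the SOX2 sort correlated at 0.015, 0.339, 0.066 and -0.187, and different-numbered ones from -0.427 to 0.423. In the MKI67 sort both same-numbered values were 0.062. With 2 libraries a group they are equal by construction, so they cannot show or exclude pairing. Whether the numbers pair samples was not settled, and the main fit had no replicate block. With the replicate block, Gpr17 counted for every gene within 5 kb had an adjusted p of 0.162 (limma) at an almost equal difference of 1.77. The sorts share numbers 1 and 2, though the labels tie no library of one to the other; a replicate block over both sorts gave 226 calls in SOX2+/MKI67- against SOX2- and 208 in SOX2+/MKI67+ against SOX2-, with 0 of the 7 genes in either. Leaving out the 1761 genes of constant peak number, which enter the estimate of spread with no variance, gave 230 calls of 12424.

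In SOX2+/MKI67+ against SOX2+/MKI67-, 30 genes were called, and 55 with equal numbers, 18 at the stricter threshold, 11 with a peak in at least 4 libraries, 64 without the 2 shortest lists, 31 to 78 without 1 library, and 0 (689 at an unadjusted p under 0.05) without constant genes (limma). In SOX2+/MKI67- against SOX2-, 139 became 253 with equal numbers, 87 with no length covariate, 282 without the 2 shortest lists and 95 to 217 without 1 library. In SOX2+/MKI67+ against SOX2-, 76 became 149 with equal numbers, 197 without the 2 shortest lists, 45 without constant genes and 83 to 135 without 1 library. The 7 regions of the SOX2 groups became 1 with equal numbers, 0 at 4 of 4 libraries, 3 without the 2 shortest lists and 0 to 8 without 1 library.

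Directions turned or came to 0 as follows. In SOX2+ against SOX2-, Pdgfra was -0.057 within 20 kb, -0.1265 with every gene within 5 kb and -0.0356 to 0.2767 without 1 library. Bcan was 0 with equal numbers, and at the stricter threshold Ncan was -0.102 and Vcan -0.0544. Ncan was -0.0232 to 0.3783 without 1 library, and Mki67 was 0 with every gene within 5 kb. In SOX2+/MKI67+ against SOX2+/MKI67-, equal numbers gave Pdgfra -1.292, Cspg4 0 and Bcan 0, and the stricter threshold gave Cspg5 0.2728, Bcan 0.0948 and Gpr17 0.4507. Vcan was -0.1592 within 20 kb and with every gene within 5 kb. Without 1 library Pdgfra ran from -0.0396 to 0.3517, Cspg4 from -1.308 to 0.6174 and Vcan from -0.3072 to 0.3963. In SOX2+/MKI67- against SOX2-, Pdgfra was -0.3159 within 20 kb and -0.2952 with every gene within 5 kb, and the stricter threshold gave Vcan -0.3906 and Gpr17 -0.0834. In SOX2+/MKI67+ against SOX2-, Pdgfra was -0.5 with equal numbers, and Gpr17 was -0.0587 to 0.8688 without 1 library.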
